A study of Mus musculus with 22 samples.

Results

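The Wnt ligands, receptors and modulators are 48 protein-coding genes, selected by GENCODE symbol from the 43430 genes in the data. They comprise 19 Wnt ligands, 10 frizzled receptors (Fzd), the 2 coreceptors Lrp5 and Lrp6, 4 R-spondins (Rspo), 3 R-spondin receptors (Lgr4 to Lgr6), 4 secreted frizzled-related proteins (Sfrp), 4 Dickkopf proteins (Dkk) and 2 Axins. Their RNA was measured in ZsGreen-positive muscle stem cells from the hindlimb of Pax7-zsgreen mice, whose reporter follows the muscle stem cell factor Pax7. The 22 libraries fall into 6 groups: uninjured muscle at ZT4 and ZT16 (3 libraries each), and muscle 1 and 3 days after cardiotoxin at ZT4 and ZT16 (4 libraries each). Cardiotoxin is a snake toxin that destroys myofibers. ZT4 and ZT16 are zeitgeber times in hours from lights on, which the labels attach to the injury. The hour of collection, and what ZT4 and ZT16 refer to in uninjured muscle, are not given in the sources used here. All mice carried the reporter, all cells were lightly fixed in vivo before RNA extraction, and the groups differ by injury and time alone as far as the labels go. The labels do not say that replicates were separate mice, so the p-values measure only the spread between these libraries.

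Wnt ligands are secreted lipid-bearing proteins that bind a frizzled receptor together with Lrp5 or Lrp6. In the canonical branch this takes Axin away from the complex that degrades beta-catenin, which then acts with TCF and LEF factors on target genes, Axin2 among them. Secreted frizzled-related and Dickkopf proteins hold the signal back, and R-spondins prolong it through Lgr4 to Lgr6 by keeping frizzled receptors on the surface. In muscle, Wnt signals are known for roles in stem cell quiescence, in the polarity and expansion of stem cells and in the differentiation of myoblasts.

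Library totals ran from 5965957 to 9751536 estimated counts. Of the 48 members, 28 passed the filter on low counts and were tested, and 15 averaged 10 CPM or more (counts scaled to library size) in some group. Dkk2, Dkk3 and Lgr5 passed the filter only through their day 3 libraries and Wnt4 only through its uninjured ones, so each was tested because of the state where it is high. Their differences from that state are given as descriptions. Stem cell and myogenic markers had counts in every library. Of 9 such markers, 1 rose and 7 fell at day 1, and 3 rose and 5 fell at day 3 (edgeR adjusted p under 0.05 against uninjured). Pax7 had a median of 324 CPM in uninjured muscle, 56.8 at day 1 and 22.1 at day 3. Myog, a factor of terminal differentiation, had 271, 8.61 and 1632 CPM. Some libraries stood apart. In uninjured ZT16 replicates 1 and 3, 12 immediate early genes summed to 77476 and 66500 CPM, against 1636 to 4628 CPM in the other uninjured libraries. At day 3, 4 libraries (ZT4 replicates 1 and 2, ZT16 replicates 3 and 4) had 18770 to 23089 genes with counts, against 15812 to 17984 in the other 18. Markers of other cells also moved with injury. The summed level of 8 macrophage markers was 15.2 to 73.1 CPM in uninjured libraries, 1148 to 3521 CPM at day 1 and 233 to 754 CPM at day 3, with none of the 8 at 0 in any group. The sum of 13 fibroadipogenic markers was 6346 to 7748 CPM in uninjured libraries, 1430 to 2199 CPM at day 1 and 1807 to 3775 CPM at day 3. Sums of 8 myofiber markers were 483 to 1229, 121 to 819 and 847 to 2231 CPM in the same order. Those of 6 neutrophil markers were 0 to 3.71, 29.2 to 308 and 6.40 to 16.4 CPM. Their part in the results was not tested, and fewer cells of a type and less RNA per cell cannot be told apart in such bulk libraries.

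Promoter sequences are shown for 4 members that changed at both days. They were chosen after their values were seen, since their day 3 levels went in opposite directions: Fzd4 and Lgr4 fell, Wnt9a and Sfrp2 ended higher. The day 3 call of Wnt9a and the day 1 call of Sfrp2 were lost when certain single libraries were left out, as given below. Each run is RefSeq sequence on GRCm38.p6, plus strand, 5′ to 3′, and ends at the base before the annotated gene start. Capitals mark the motifs found on either strand among CAGCTG (an E-box preferred by MyoD), CACGTG (an E-box bound by clock activators), CTTTGA (the core bound by TCF and LEF factors), CCAAT (the CCAAT box) and GGGCGG (the GC box).
Fzd4 (chr7:89404116-89404354): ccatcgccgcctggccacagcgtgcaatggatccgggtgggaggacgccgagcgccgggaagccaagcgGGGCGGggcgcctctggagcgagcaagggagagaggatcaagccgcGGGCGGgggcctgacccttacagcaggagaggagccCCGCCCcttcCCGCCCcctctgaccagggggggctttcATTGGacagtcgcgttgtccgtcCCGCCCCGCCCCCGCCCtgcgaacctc
Lgr4 (chr2:109917397-109917646): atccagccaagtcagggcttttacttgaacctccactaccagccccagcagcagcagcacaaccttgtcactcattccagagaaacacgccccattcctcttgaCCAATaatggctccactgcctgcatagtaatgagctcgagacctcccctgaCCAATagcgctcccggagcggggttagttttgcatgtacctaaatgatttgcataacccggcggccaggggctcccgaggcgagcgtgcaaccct
Wnt9a (chr11:59306680-59306927): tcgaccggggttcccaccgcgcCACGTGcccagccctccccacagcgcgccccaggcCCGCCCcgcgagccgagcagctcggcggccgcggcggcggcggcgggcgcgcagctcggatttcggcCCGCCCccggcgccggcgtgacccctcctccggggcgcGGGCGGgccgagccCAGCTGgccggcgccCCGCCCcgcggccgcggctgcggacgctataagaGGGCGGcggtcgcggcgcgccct
Sfrp2 (chr3:83766071-83766320): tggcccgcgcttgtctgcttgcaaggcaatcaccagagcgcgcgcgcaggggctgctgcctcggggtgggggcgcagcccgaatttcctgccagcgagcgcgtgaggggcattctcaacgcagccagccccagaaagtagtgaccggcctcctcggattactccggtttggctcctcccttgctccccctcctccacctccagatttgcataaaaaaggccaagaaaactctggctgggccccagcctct
The Fzd4 run holds 7 GC boxes, of which a pair shares a base, and 1 CCAAT box that starts 50 bases before the gene. In the Lgr4 run the CCAAT box occurs at 146 and 95 bases before the gene. The Wnt9a run has the MyoD-type E-box at 72 bases, the clock-type E-box at 226 bases and 5 GC boxes, and the Sfrp2 run has none of the 5 motifs. Over all 32851 RefSeq promoter windows of 250 bases, 13.0% hold CAGCTG, 6.02% CACGTG, 13.8% CTTTGA, 33.8% CCAAT and 32.7% GGGCGG. A window was found for 30 members, 14 of them tested.

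Injury moved most of the tested members, in both directions. At day 1, 18 of the 28 passed the threshold against uninjured muscle (edgeR quasi-likelihood test, Benjamini-Hochberg adjusted p under 0.05), 7 higher and 11 lower. Over all 15084 genes tested 75.2% passed (34.6% higher, 40.6% lower), so the members' share was no higher than the background. At day 3, 21 passed, 11 higher and 10 lower, beside 76.9% of all genes (37.9% higher, 39.1% lower). Between day 1 and day 3, 20 passed, 13 higher and 7 lower, beside 55.4% of all genes (26.7% higher, 28.7% lower). These counts include Wnt4 (both days), Lgr5 and Dkk3 (day 3), and Dkk2, Dkk3 and Lgr5 (between the days). Each of these was tested only through a state in its comparison, so those calls are descriptions. The median log2 fold change of the 28 was −0.51 at day 1 and 0.55 at day 3, beside −0.13 and −0.03 over all genes tested. Both days were compared with the same 6 uninjured libraries, so the 2 comparisons are not independent.

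**Figure D1:**
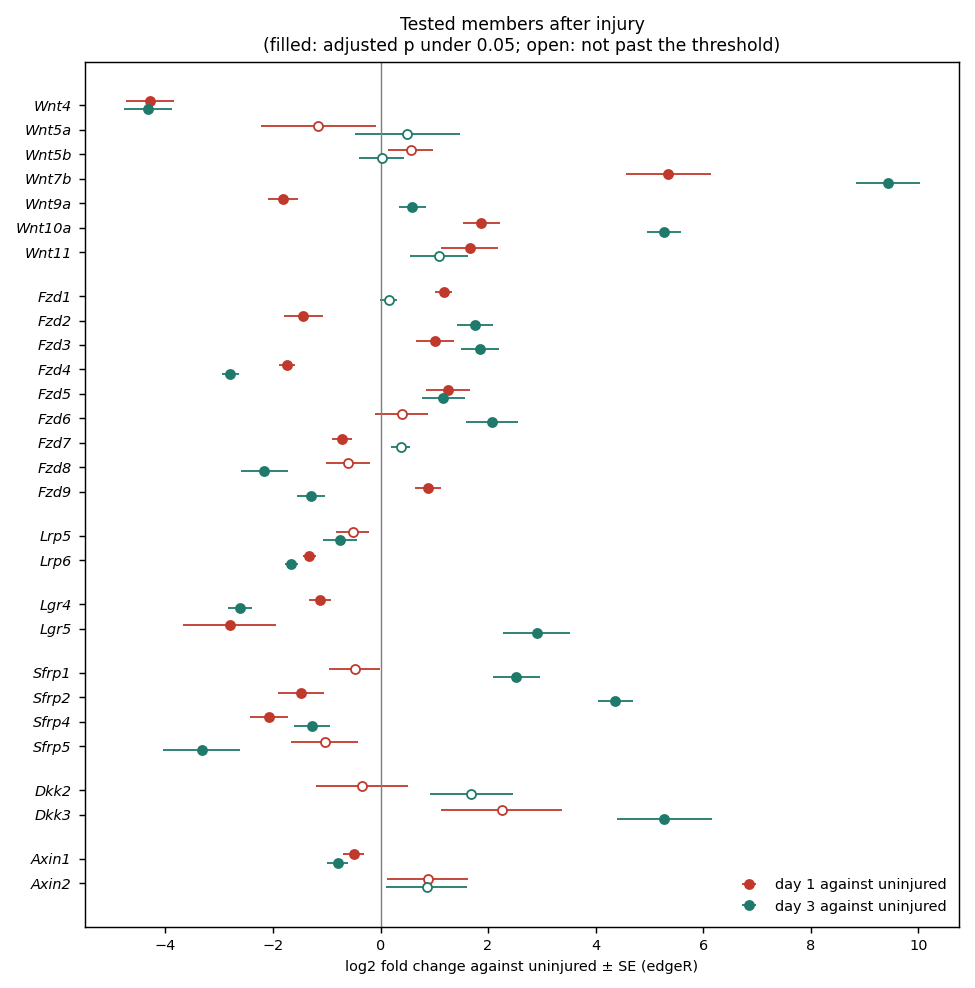
Log2 fold change ± SE (edgeR) of the 28 tested members against uninjured muscle, at day 1 (red) and day 3 (green), grouped by role; filled points passed an adjusted p of 0.05. The highest value is that of Wnt7b at day 3 (9.44) and the lowest that of Wnt4 at day 3 (−4.32).

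The leading ligands differed between states. In TPM, an abundance scale corrected for transcript length, the uninjured ligand signal came mainly from Wnt9a (median 38.2% of all Wnt TPM), Wnt4 (24.9%) and Wnt5b (20.03%). At day 3 it came mainly from Wnt10a (41.1%), Wnt7b (25.4%) and Wnt9a (17.8%). The summed TPM of the 19 ligands was 12.03 ± 4.18 (SD, n = 6) in uninjured muscle, 8.46 ± 1.71 (n = 8) at day 1 and 32.6 ± 4.67 (n = 8) at day 3. Every day 3 library, from 28.0 TPM upward, was above every other library, of which the highest had 16.6 TPM.

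Wnt7b (chromosome 15, 85535437 to 85582473, minus strand), a ligand that can act through beta-catenin and through other branches, was close to absent before injury. It had 1 read in all uninjured libraries together, 76 at day 1 and 1394 at day 3. Its level was 0.414, 1.38 and 2.18 CPM (lowest, median, highest) at day 1 and 13.1, 22.6 and 35.5 CPM at day 3, and the 3 ranges did not overlap. The ratio of pooled CPM to uninjured was 56.8 at day 1 (95% counting interval 9.90 to 2274) and 998 at day 3 (179 to 39444), wide because of the single uninjured read. From day 1 to day 3 it rose by 4.08 ± 0.31 on the log2 scale (edgeR adjusted p = 1.91e-10).

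Wnt10a (chromosome 1, 74791516 to 74804179), a ligand of the canonical branch, rose in steps. It had 0.124, 0.456 and 1.44 CPM in uninjured muscle, 1.09, 2.03 and 4.29 CPM at day 1, and 15.7, 21.8 and 33.6 CPM at day 3. The uninjured and day 1 ranges overlapped, and all day 3 libraries were higher than both. The log2 fold change was 1.87 ± 0.34 at day 1 (edgeR adjusted p = 3e-05) and 5.27 ± 0.31 at day 3 (edgeR adjusted p = 1.13e-13).

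Wnt4 (chromosome 4, 137277489 to 137299726), a ligand tied to stem cell quiescence in muscle, went the other way. It had 4.21, 9.37 and 20.3 CPM in uninjured muscle, 0.127, 0.533 and 0.831 CPM at day 1, and 0, 0.453 and 1.26 CPM at day 3. All injured libraries were below all uninjured ones. As a description, since Wnt4 was tested only through its uninjured libraries, it was lower by 4.28 ± 0.44 on the log2 scale at day 1. At day 3 it was lower by 4.32 ± 0.44, while between the days its value was −0.04 ± 0.48 (edgeR adjusted p = 0.959).

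Wnt9a (chromosome 11, 59306928 to 59333552), whose promoter is printed above, dipped and came back. Its levels were 2.08, 10.9 and 15.3 CPM in uninjured muscle, 1.42, 2.85 and 3.96 CPM at day 1, and 9.45, 14.3 and 18.6 CPM at day 3. The low uninjured value came from 1 ZT4 library, day 3 lay wholly above day 1, and uninjured and day 3 overlapped. The log2 fold change was −1.81 ± 0.27 at day 1 (edgeR adjusted p = 1.79e-06) and 0.59 ± 0.25 at day 3 (edgeR adjusted p = 0.0374). The day 3 call was lost without any 1 of 5 libraries: day 3 ZT4 replicate 2, day 3 ZT16 replicate 1 or 3, uninjured ZT4 replicate 3 or uninjured ZT16 replicate 3 (edgeR adjusted p 0.0630 to 0.0691). It was also lost with ZT16 groups alone (log2 0.21, edgeR adjusted p = 0.597) and without the 4 day 3 libraries with the most genes detected (0.51, edgeR adjusted p = 0.178).

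The other tested ligands were low. Wnt11, known for non-canonical signalling, had medians of 0.501, 2.47 and 1.74 CPM and passed at day 1 (log2 1.66 ± 0.53, edgeR adjusted p = 0.00705), but not at day 3 (1.09 ± 0.54) or with ZT4 groups alone (0.99, adjusted p = 0.212). Wnt5b, with medians of 3.19, 3.68 and 3.32 CPM, and Wnt5a, with medians under 1 CPM, both non-canonical ligands, passed in none of the 3 comparisons. Wnt5b nonetheless made up 28.7% of ligand TPM at day 1, the highest median share there, since the other ligands were low.

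**Figure D2:**
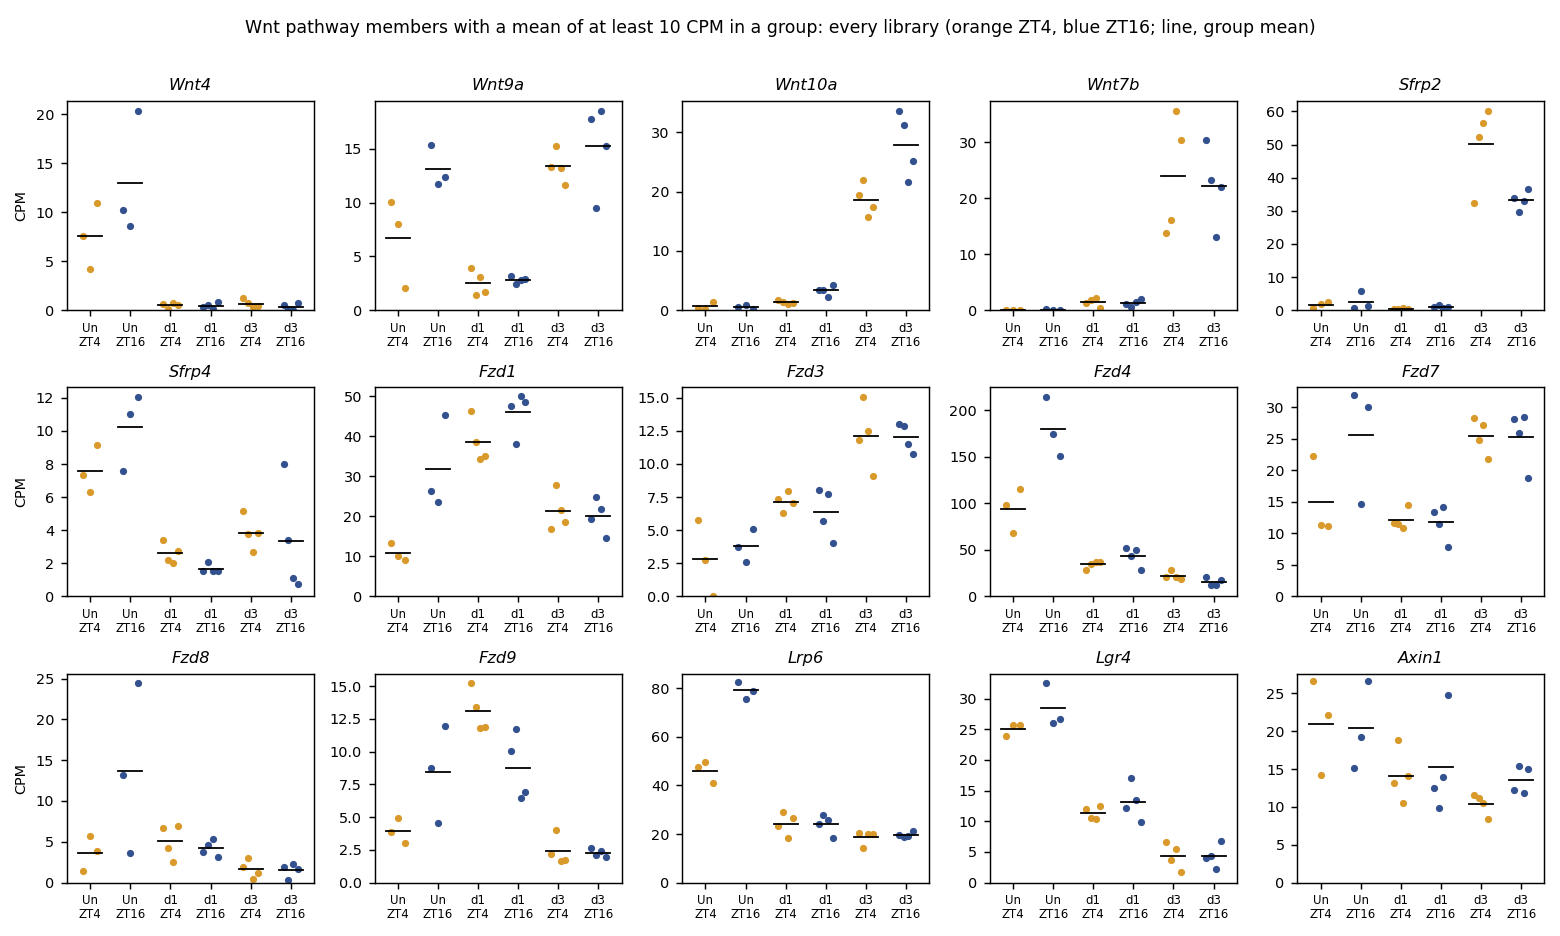
Level in CPM of the 15 members that averaged 10 CPM or more in some group, in each of the 22 libraries (orange ZT4, blue ZT16; line, group mean; Un uninjured, d1 and d3 days after injury). Wnt4, Fzd4, Lrp6 and Lgr4 are highest in uninjured muscle, and Wnt10a, Wnt7b and Sfrp2 at day 3.

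Among the receptors, Fzd4 dominated the uninjured cells and lost that place after injury. It made up a median of 69.4% of frizzled TPM in uninjured muscle, 32.3% at day 1 and 23.1% at day 3. By then Fzd7 (24.4%) and Fzd1 (20.7%) had median shares close to it. The summed frizzled TPM was 79.4 ± 35.4 (SD, n = 6), 43.3 ± 5.69 (n = 8) and 31.6 ± 5.08 (n = 8), and the uninjured range, 39.5 to 121 TPM, overlapped those of both days (33.9 to 52.5 and 25.4 to 40.7 TPM).

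Fzd4 (chromosome 7, 89404355 to 89413134), a receptor for Wnts and for the non-Wnt ligand norrin, had 68.3, 133 and 214 CPM in uninjured muscle, 28.2, 37.3 and 51.7 CPM at day 1, and 12.1, 19.7 and 28.0 CPM at day 3. The 3 ranges did not overlap. Its log2 fold change was −1.75 ± 0.15 at day 1 (edgeR adjusted p = 2.21e-10), −2.79 ± 0.15 at day 3 (edgeR adjusted p = 7.12e-14) and −1.05 ± 0.15 between the days (edgeR adjusted p = 1.91e-06). Summed markers of vessel and nerve cells were also lower after injury. The sum of 7 endothelial markers was 98.5 to 191 CPM in uninjured libraries, 33.5 to 76.6 CPM at day 1 and 12.2 to 24.6 CPM at day 3, with none at 0 in any group. Singly, 1 of the 7 rose and 1 fell at day 1, and 4 fell at day 3. The sum of 8 mural markers was 786 to 1597, 416 to 489 and 293 to 487 CPM, and that of 6 Schwann cell markers 622 to 853, 276 to 352 and 231 to 366 CPM, with Sox10 at 0 in day 1 ZT4. Their part in the fall of Fzd4 and of the other members that fell was not tested.

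Fzd7 (chromosome 1, 59482424 to 59486955), described as the receptor through which Wnt7a acts on muscle stem cells, was lowest at day 1. Its levels were 11.2, 18.5 and 32.0 CPM in uninjured muscle, 7.89, 11.6 and 14.5 CPM at day 1, and 18.9, 26.6 and 28.5 CPM at day 3, so that day 3 lay wholly above day 1. The log2 fold change was −0.72 ± 0.19 at day 1 (edgeR adjusted p = 0.00141), 0.37 ± 0.19 at day 3 (edgeR adjusted p = 0.0703) and 1.09 ± 0.18 between the days (edgeR adjusted p = 1.06e-05). Without uninjured ZT16 replicates 1 and 3 the day 1 value was −0.19 (edgeR adjusted p = 0.449), and with ZT4 groups alone −0.31 (edgeR adjusted p = 0.313).

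Fzd1 (chromosome 5, 4753839 to 4758035, minus strand) was highest at day 1. It had 8.97, 18.6 and 45.3 CPM in uninjured muscle, 34.4, 42.4 and 50.1 CPM at day 1, and 14.6, 20.5 and 27.8 CPM at day 3. Day 1 lay wholly above day 3, and 1 uninjured ZT16 library reached into the day 1 range. Against uninjured its log2 fold change was 1.18 ± 0.16 at day 1 (edgeR adjusted p = 4.36e-07), 0.15 ± 0.16 at day 3 (edgeR adjusted p = 0.390) and −1.03 ± 0.14 between the days (edgeR adjusted p = 1.67e-06).

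Fzd9 (chromosome 5, 135248938 to 135251230, minus strand) was also highest at day 1, but lowest at day 3. It had 3.04, 4.76 and 11.9 CPM in uninjured muscle, 6.47, 11.8 and 15.3 CPM at day 1, and 1.63, 2.16 and 4.03 CPM at day 3. Day 1 again lay wholly above day 3, while the uninjured range overlapped both. It rose by 0.89 ± 0.24 on the log2 scale at day 1 (edgeR adjusted p = 0.00192) and fell by 1.29 ± 0.25 at day 3 (edgeR adjusted p = 6.22e-05). With ZT16 groups alone the day 1 value was 0.06 (edgeR adjusted p = 0.884), and with ZT4 groups alone the day 3 value was −0.72 (edgeR adjusted p = 0.0837).

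Fzd8 (chromosome 18, 9212163 to 9218136) spread widely in uninjured muscle, at 1.47, 4.77 and 24.4 CPM, and had 2.49, 4.45 and 6.89 CPM at day 1 and 0.354, 1.75 and 3.06 CPM at day 3. All ranges overlapped. It fell by 2.16 ± 0.43 at day 3 (edgeR adjusted p = 8.67e-05) and did not pass at day 1 (−0.60 ± 0.41, edgeR adjusted p = 0.179). With ZT4 groups alone the day 3 value was −1.14 (edgeR adjusted p = 0.109).

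Fzd3 (chromosome 14, 65192449 to 65262463, minus strand), a receptor known from planar cell polarity, rose at both days. It had 0, 3.22 and 5.76 CPM in uninjured muscle, 4.02, 7.198 and 8.04 CPM at day 1, and 9.05, 12.1 and 15.02 CPM at day 3, which lay above all other libraries. The log2 fold change was 1.01 ± 0.35 at day 1 (edgeR adjusted p = 0.0129) and 1.85 ± 0.35 at day 3 (edgeR adjusted p = 5.08e-05). With ZT16 groups alone the day 1 value was 0.74 (edgeR adjusted p = 0.194).

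The remaining frizzled receptors stayed under 10 CPM in every group. Fzd2, with medians of 1.77, 0.658 and 6.10 CPM, fell at day 1 (log2 −1.44 ± 0.37, edgeR adjusted p = 0.00112) and rose at day 3 (1.75 ± 0.33, edgeR adjusted p = 3.95e-05), when all libraries were above all others. Its day 1 value with ZT4 groups alone was −0.96 (edgeR adjusted p = 0.108). Fzd6, also known from planar polarity, had medians of 0.966, 1.07 and 4.40 CPM and rose at day 3 (2.07 ± 0.48, edgeR adjusted p = 0.000427), though not with ZT16 groups alone (1.09, edgeR adjusted p = 0.145). Fzd5 had medians of 0.738, 3.48 and 3.08 CPM and passed at both days (1.25 ± 0.40 and 1.17 ± 0.40), but with ZT16 groups alone the direction turned (−0.79 and −0.29). Gm38058, a gene on the other strand, overlaps Fzd5 and had 17, 43 and 43 counts against 104, 184 and 187 for Fzd5. The strand setting of the counting is not given, so reads of the pair cannot be told apart.

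**Figure D3:**
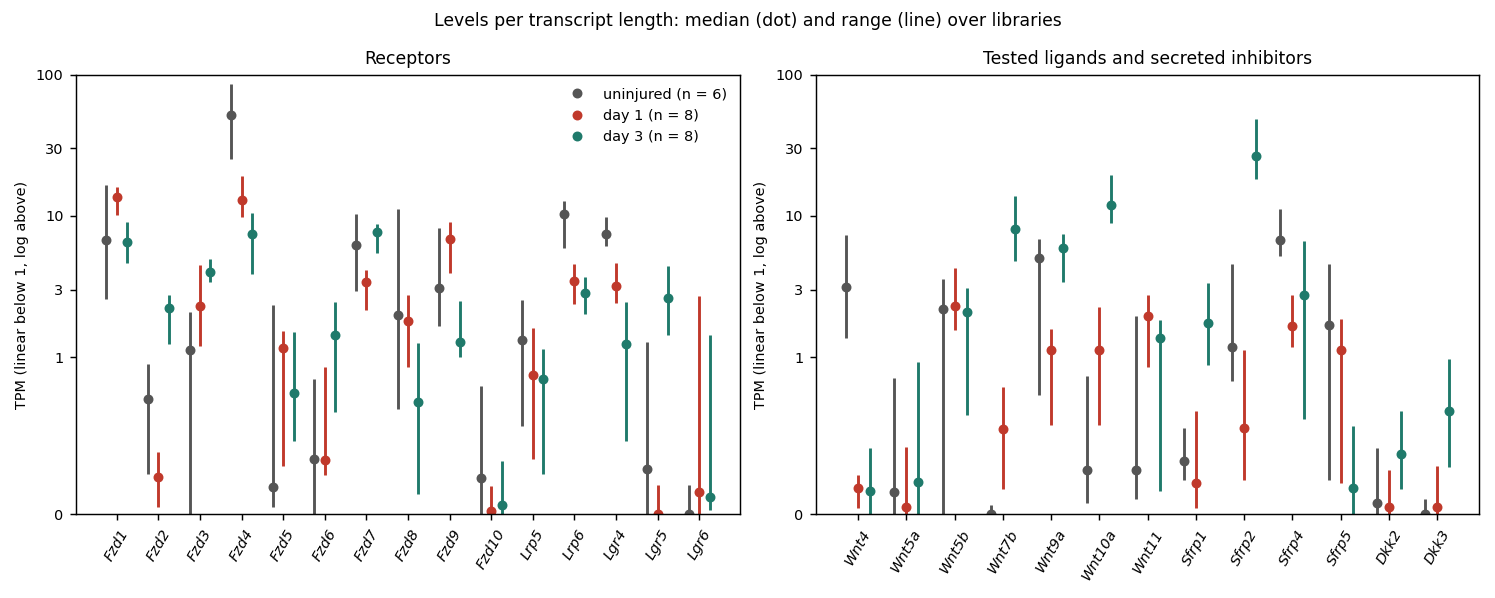
Level per transcript length (TPM; axis linear below 1 and logarithmic above) of the receptors (left) and of the tested ligands and secreted inhibitors (right), as median (dot) and range (line) over 6 uninjured, 8 day 1 and 8 day 3 libraries. Fzd4 has the highest uninjured median (51.5 TPM) and Sfrp2 the highest day 3 median (26.4 TPM).

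Lrp6 (chromosome 6, 134446476 to 134566965, minus strand), the coreceptor that is phosphorylated when a Wnt binds, fell with Fzd4. It had 41.0, 62.7 and 82.7 CPM in uninjured muscle, 18.3, 24.96 and 28.9 CPM at day 1, and 14.2, 19.8 and 21.4 CPM at day 3. Every injured library was below every uninjured one. The log2 fold change was −1.32 ± 0.11 at day 1 (edgeR adjusted p = 1.55e-10) and −1.66 ± 0.11 at day 3 (edgeR adjusted p = 2.12e-12), with a further −0.33 ± 0.11 between the days (edgeR adjusted p = 0.0121). The call between the days was lost with effective length offsets, at either time alone and without the 4 day 3 libraries with the most genes detected (edgeR adjusted p 0.0511 to 0.146). Its relative Lrp5 was low, with medians of 3.84, 2.88 and 2.72 CPM, and passed at day 3 alone (−0.75 ± 0.31, edgeR adjusted p = 0.0316). That call was lost without any 1 of 8 libraries (day 3 ZT4 replicates 1, 3 and 4, day 3 ZT16 replicate 1, uninjured ZT4 replicates 1 and 3, uninjured ZT16 replicates 2 and 3), with edgeR adjusted p of 0.0506 to 0.131.

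The R-spondin receptors exchanged places. Lgr4 (chromosome 2, 109917647 to 110014257) had 23.9, 25.8 and 32.5 CPM in uninjured muscle, 9.83, 12.1 and 17.1 CPM at day 1, and 1.71, 4.13 and 6.79 CPM at day 3, with no overlap between states. It fell by 1.12 ± 0.21 on the log2 scale at day 1 (edgeR adjusted p = 2.99e-05) and by 2.62 ± 0.22 at day 3 (edgeR adjusted p = 8.83e-11). Lgr5 (chromosome 10, 115450311 to 115587780, minus strand), a stem cell marker of the gut, had 0, 0.738 and 3.85 CPM, then 0, 0 and 0.689 CPM, then 5.08, 7.49 and 9.57 CPM. All day 3 libraries were above all others. As a description, since Lgr5 was tested only through its day 3 libraries, it was higher there by 2.90 ± 0.62 (log2) than in uninjured muscle. Against day 1 Lgr5 was higher by 5.71 ± 0.72. Its fall at day 1 (−2.80 ± 0.87, edgeR adjusted p = 0.00574) rested on 43 uninjured and 8 day 1 counts, and was lost without uninjured ZT4 replicate 3 (−1.70, edgeR adjusted p = 0.0756). As a share of Lgr TPM, Lgr4 went from a median of 96.7% to 93.0% and then 34.4%, and Lgr5 reached 61.1% at day 3.

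The R-spondins themselves were at or near 0 and none was tested. Rspo1 had 33, 18 and 4 counts over the uninjured, day 1 and day 3 libraries and Rspo3 had 2, 5 and 20. Rspo2 and Rspo4 had 8 and 6 counts at day 3 and none elsewhere. A count of 0 in the pooled uninjured libraries allows up to 0.0699 CPM (3 counts, counting error only). The third receptor, Lgr6, had 3, 39 and 29 counts.

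Secreted frizzled-related proteins, which bind Wnts or frizzled receptors, also exchanged places. Sfrp4 held 60.5% of Sfrp TPM in uninjured muscle at the median, and Sfrp2 held 86.9% at day 3. Sfrp2 (chromosome 3, 83766321 to 83774316) had 0.565, 1.505 and 5.71 CPM in uninjured muscle, 0.316, 0.706 and 1.54 CPM at day 1, and 29.8, 35.2 and 60.1 CPM at day 3. The day 3 libraries were far above all others. Sfrp2 rose by 4.37 ± 0.32 against uninjured (edgeR adjusted p = 1.37e-11) and by 5.84 ± 0.33 against day 1 (edgeR adjusted p = 6.65e-13). Its fall at day 1 (−1.47 ± 0.43, edgeR adjusted p = 0.00345) was lost without uninjured ZT16 replicate 2 (−0.69, edgeR adjusted p = 0.0956). Gm26771, on the other strand, overlaps Sfrp2 and had 155 counts at day 3, against 2450 for Sfrp2.

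Sfrp4 (chromosome 13, 19623104 to 19632994) had 6.31, 8.36 and 12.1 CPM in uninjured muscle, 1.52, 2.04 and 3.41 CPM at day 1, and 0.755, 3.59 and 8.01 CPM at day 3. Day 1 lay wholly below uninjured, and the wide day 3 range overlapped both. It fell by 2.07 ± 0.35 at day 1 (edgeR adjusted p = 1.01e-05) and by 1.27 ± 0.34 at day 3 (edgeR adjusted p = 0.00148). The day 3 value with ZT4 groups alone was −0.97 (edgeR adjusted p = 0.0751). Its rise between the days (0.80 ± 0.34, edgeR adjusted p = 0.0481) was lost without any 1 of 12 libraries (day 1 ZT4 replicates 2 to 4, day 1 ZT16 replicates 1, 3 and 4, day 3 ZT4 replicates 1, 2 and 4, day 3 ZT16 replicates 1 and 2, uninjured ZT16 replicate 3), with edgeR adjusted p of 0.0546 to 0.328.

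Sfrp1 and Sfrp5 stayed under 10 CPM and moved apart. Sfrp1, with medians of 1.04, 0.663 and 5.74 CPM, rose at day 3 (2.52 ± 0.44, edgeR adjusted p = 1.37e-05), when all libraries were above all others. Sfrp5, with medians of 2.10, 1.47 and 0.229 CPM, fell at day 3 (−3.32 ± 0.72, edgeR adjusted p = 0.00019). Its fall between the days (−2.28 ± 0.71) was lost without day 1 ZT4 replicate 2 (−1.66, edgeR adjusted p = 0.0620).

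Of the Dickkopf proteins, most of which bind Lrp5 and Lrp6, Dkk2 and Dkk3 were tested, both by way of their day 3 counts. Dkk3, the divergent member of the family, had 2, 14 and 96 counts over the 3 states and a median of 1.65 CPM at day 3. All day 3 libraries were above all uninjured ones. The ratio of pooled CPM at day 3 to uninjured was 34.4 (95% counting interval 9.26 to 288). As a description, its value against day 1 was 3.03 ± 0.62 on the log2 scale. Dkk2 had 15, 15 and 67 counts, with medians of 0.193, 0.136 and 1.05 CPM. Also as a description, its log2 value was 2.02 ± 0.73 against day 1 and 1.69 ± 0.77 against uninjured. The value against day 1 was past the threshold with all libraries, but not with ZT4 or ZT16 groups alone. Without day 3 ZT4 replicate 1, day 3 ZT16 replicate 1 or day 3 ZT16 replicate 3, Dkk2 fell below the filter and was not tested. Dkk1, with 6 counts at day 3, and Dkk4, with 2 in uninjured muscle, were not tested.

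Axin1 (chromosome 17, 26138688 to 26195811), a scaffold of the complex that degrades beta-catenin, had 14.2, 20.7 and 26.7 CPM in uninjured muscle, 9.91, 13.5 and 24.8 CPM at day 1, and 8.40, 11.7 and 15.4 CPM at day 3. The ranges overlapped. It fell by 0.80 ± 0.20 at day 3 (edgeR adjusted p = 0.00074; 0.0632 with ZT16 groups alone) and by 0.49 ± 0.19 at day 1 (edgeR adjusted p = 0.0251). The day 1 call was lost without any 1 of 7 libraries (day 1 ZT4 replicate 3, day 1 ZT16 replicates 1 and 2, day 3 ZT4 replicate 1, uninjured ZT4 replicate 1, uninjured ZT16 replicates 2 and 3), with edgeR adjusted p of 0.0519 to 0.214. Axin2, a common readout of canonical signalling, had medians of 0.113, 0.725 and 0.887 CPM and passed in neither comparison with uninjured (0.88 ± 0.75 and 0.86 ± 0.75).

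The 20 members below the filter had few counts in total: 100 over 7 members in uninjured libraries, 104 over 8 at day 1 and 190 over 18 at day 3. They are Dkk1, Dkk4, Fzd10, Lgr6, the 4 R-spondins and the ligands Wnt1, Wnt2, Wnt2b, Wnt3, Wnt3a, Wnt6, Wnt7a, Wnt8a, Wnt8b, Wnt9b, Wnt10b and Wnt16. None exceeded 2.45 CPM in any library, and Wnt8a had no count. Of the 190 day 3 counts, 118 came from the 4 libraries with the most genes detected and 72 from the other 4, whose totals were 26653991 and 33277666 counts. Wnt7a, known for expanding muscle stem cells, had 4 counts, all at day 3. Wnt3a, often used to activate the canonical branch in culture, had 10, all at day 3.

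Some members differed between the uninjured libraries labelled ZT16 and ZT4, at a share close to that of all genes with both directions pooled. At ZT16, 6 of the 28 tested members (21.4%) were higher than at ZT4 and none was lower (edgeR adjusted p under 0.05). Over all genes tested 17.7% passed (8.53% higher, 9.12% lower), so the members' share with both directions pooled was near the background. Taken by direction it was not, with 21.4% of members higher against 8.53% of all genes, and none lower against 9.12%. This split by direction was not tested. All 6 were receptors: Fzd1, Fzd4, Fzd5, Fzd8, Fzd9 and the coreceptor Lrp6. Lrp6 had 47.8, 49.5 and 41.0 CPM in ZT4 replicates 1 to 3 and 82.7, 75.8 and 79.1 CPM at ZT16 (log2 0.78 ± 0.17, edgeR adjusted p = 0.00222). Fzd4 had 98.0, 68.3 and 115 CPM at ZT4 and 214, 175 and 151 CPM at ZT16 (0.94 ± 0.22, edgeR adjusted p = 0.00426). Fzd1 had 13.4, 10.1 and 8.97 CPM at ZT4 and 26.4, 23.7 and 45.3 CPM at ZT16 (1.54 ± 0.25, edgeR adjusted p = 0.000168). In these 3 genes all ZT16 libraries, replicate 2 included, were above all ZT4 libraries. The 3 were picked from members called in this same comparison, and the share of all genes that separate so is not given here. The separation is therefore a description only. The endothelial marker sum separated the same libraries, at 112, 111 and 98.5 CPM at ZT4 and 191, 135 and 145 CPM at ZT16, with 1 of 7 markers called higher. The mural marker sum went the other way, at 1258 to 1597 CPM at ZT4 and 786 to 1058 CPM at ZT16. Singly, 2 of the 8 mural markers were called lower and 6 did not pass (median log2 −0.12). The part of the endothelial and mural markers in the result was not tested.

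The other 3 followed the ZT16 libraries with high immediate early genes. Fzd5 had 6.59, 0.857 and 6.10 CPM in ZT16 replicates 1 to 3, against 0.226 to 0.619 CPM at ZT4 (3.48 ± 0.65, edgeR adjusted p = 0.000636). Fzd8 had 13.2, 3.57 and 24.4 CPM at ZT16 and 1.47, 5.69 and 3.85 CPM at ZT4 (1.90 ± 0.62, edgeR adjusted p = 0.0351). Fzd9 had 8.74, 4.57 and 11.9 CPM at ZT16 and 3.84, 4.95 and 3.04 CPM at ZT4 (1.08 ± 0.37, edgeR adjusted p = 0.0430). In Fzd8 and Fzd9, ZT16 replicate 2 lay within the ZT4 range, and in Fzd5 it was just above it.

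Without ZT16 replicates 1 and 3, which leaves 1 library at ZT16 that is assumed to vary like the others, 2 members passed. They were Fzd1 (1.10 ± 0.29, edgeR adjusted p = 0.0401) and Sfrp2, which is not among the 6 (1.89 ± 0.48, edgeR adjusted p = 0.0326, against 0.77 and 0.363 with all libraries). Fzd4 (0.87) and Lrp6 (0.70) kept their size but not the call (both at edgeR adjusted p = 0.125), Fzd5 went to 1.09 and Fzd9 to 0.19, and Fzd8 turned to −0.06. Leaving out single libraries ended the call of Fzd8 for uninjured ZT4 replicates 1 and 3 and ZT16 replicates 1 and 3 (edgeR adjusted p 0.0727 to 0.255). Fzd9 lost its call without any 1 of 10 libraries (those 4, all of day 1 ZT4, day 1 ZT16 replicate 1 and day 3 ZT4 replicate 1), at edgeR adjusted p of 0.0501 to 0.237.

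**Figure D4:**
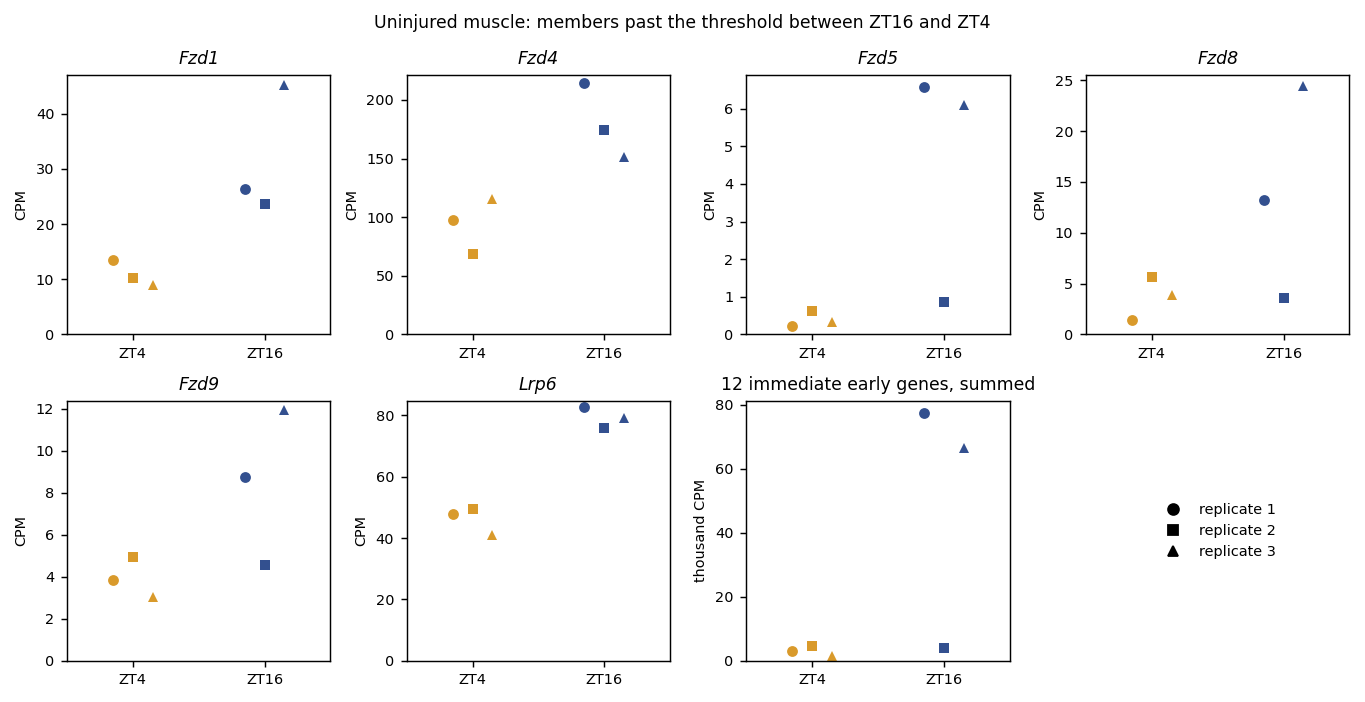
Level in CPM of the 6 members that passed between ZT16 and ZT4 in uninjured muscle, and summed level of 12 immediate early genes (last panel), per library (orange ZT4, blue ZT16; symbols mark replicates). Fzd5 and Fzd8 are high in ZT16 replicates 1 and 3 alone, as the immediate early genes are, while Fzd1, Fzd4 and Lrp6 are higher in all 3 ZT16 libraries.

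After injury no member passed between ZT16 and ZT4, at day 1 or day 3, nor did any other gene in the edgeR fit of all libraries and 15084 genes (0% at each day). At an unadjusted p under 0.05 there were 2 members and 920 genes at day 1, and 2 members and 1003 genes at day 3. DESeq2 called 27 and 4 genes, limma voom 46 and 0, and neither tool called a member. Other edgeR settings called up to 270 genes at day 1 and 127 at day 3, both without the filter on low counts, and no member. Wnt10a came closest at day 1, with 1.77, 1.42, 1.09 and 1.24 CPM at ZT4 and 3.49, 3.35, 2.29 and 4.29 CPM at ZT16 (log2 1.26 ± 0.37, edgeR adjusted p = 0.521). The groups did not overlap. At day 3 its levels were 19.5, 21.97, 15.7 and 17.4 CPM at ZT4 and 33.6, 31.3, 21.6 and 25.2 CPM at ZT16, which overlapped at 1 library (0.58 ± 0.28, edgeR adjusted p = 0.747).

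Other members with small p-values gave no call either. Fzd4 at day 3 had 20.4, 28.0, 20.9 and 19.0 CPM at ZT4 and 21.0, 12.1, 12.5 and 17.7 CPM at ZT16 (log2 −0.47 ± 0.21, edgeR adjusted p = 0.734). Fzd6 at day 3 had 5.96, 4.73, 7.42 and 6.56 CPM at ZT4 and 2.77, 2.48, 2.08 and 4.07 CPM at ZT16 (−1.11 ± 0.56, edgeR adjusted p = 0.775). Fzd9 at day 1 had 15.3, 13.4, 11.8 and 11.9 CPM at ZT4 and 10.01, 11.7, 6.47 and 6.92 CPM at ZT16 (−0.58 ± 0.30, edgeR adjusted p = 0.873), and Dkk3 there rested on 14 counts. In Fzd6 and Fzd9 the ZT4 libraries were all above the ZT16 ones.

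The difference between ZT16 and ZT4, called the time effect, itself differed between uninjured and injured muscle for some receptors. Of the 28 tested members, 4 had a lower time effect at day 1 than in uninjured muscle, beside 7.46% of all genes (3.93% higher, 3.53% lower), and 4 had a lower one at day 3, beside 12.8% (6.8% higher, 5.97% lower). No member had a higher one. At day 1 these were Fzd5 (difference of log2 effects −4.10 ± 0.80), Fzd9 (−1.66 ± 0.48), Fzd1 (−1.28 ± 0.32) and Lrp6 (−0.80 ± 0.23). At day 3 they were Fzd5 (−2.91 ± 0.80), Fzd1 (−1.61 ± 0.32), Fzd4 (−1.42 ± 0.31) and Lrp6 (−0.70 ± 0.23). Without uninjured ZT16 replicates 1 and 3, none of the 4 passed at either day, and Sfrp2 alone passed at day 3 (−2.49 ± 0.53, edgeR adjusted p = 0.0141). Without uninjured ZT16 replicate 3 alone 1 member passed at day 1, and without any 1 of uninjured ZT16 replicate 1, uninjured ZT4 replicate 3, day 1 ZT4 replicate 2 or day 1 ZT16 replicate 4 there were 2. At day 3, 2 remained past the threshold without uninjured ZT16 replicate 1.

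Other genes of the pathway, from fixed lists, were read beside the members, and some genes stand in more than 1 list. Over all genes tested, 34.6% rose and 40.6% fell at day 1, and 37.9% rose and 39.1% fell at day 3. Between the days 26.7% rose and 28.7% fell. Every list count, cell markers included, is to be read beside these shares, and none was tested against them. Of 3 genes that act on the secretion of Wnts or on their lipid, all fell at day 1, and 1 rose and 2 fell at day 3. Porcn, the enzyme that adds the lipid to Wnts, had medians of 32.1, 5.53 and 7.69 CPM (log2 −2.53 ± 0.20 and −2.21 ± 0.20 against uninjured). Wls, which carries Wnts to the surface, fell slightly at day 1 (−0.47 ± 0.08) and was higher at day 3 (0.25 ± 0.08). Notum, a secreted enzyme that removes the lipid, went from a median of 2.42 CPM to 0.128 and 0 CPM (−3.74 ± 0.63 and −5.64 ± 0.76). The states through which list genes passed the filter were not examined. Since Notum was near 0 after injury, its values are descriptions, though the list counts include it.

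Of 7 tested genes for other surface proteins, 1 rose and 5 fell at day 1, and none rose and 5 fell at day 3. Ror1, a receptor for Wnt5a, went from a median of 238 CPM to 47.5 and 5.66 CPM (log2 −2.19 ± 0.15 and −5.32 ± 0.18), the lowest p of that list at both days. Tnfrsf19 went from 79.2 to 42.9 and 6.80 CPM (−0.78 ± 0.15 and −3.50 ± 0.17). Znrf3, which removes frizzled receptors from the surface and is itself held back by R-spondin, fell by 1.00 ± 0.15 and 1.54 ± 0.15, and Kremen1, a Dickkopf receptor, fell by 1.52 ± 0.12 and 1.14 ± 0.12. Of 7 other secreted or matrix modulators, 2 rose and 1 fell at day 1, and 2 rose and 4 fell at day 3. Cthrc1, a collagen-associated Wnt cofactor, had no count in uninjured muscle and medians of 0.539 and 17.2 CPM after injury.

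Within the cell, 3 of 25 transduction genes rose and 15 fell at day 1, and 6 rose and 11 fell at day 3. From day 1 to day 3, 13 rose and 4 fell. The corepressor gene Tle3 fell at both days (log2 −1.48 ± 0.12 and −1.62 ± 0.12), as did Tcf7l1, a TCF factor known mainly as a repressor (−1.11 ± 0.12 and −1.46 ± 0.13). Tcf7l2 fell at day 1 (−1.08 ± 0.10) and did not pass at day 3 (−0.09 ± 0.10, edgeR adjusted p = 0.405). Lef1, the TCF family member often induced by the pathway, had medians of 0.0801, 0.157 and 3.65 CPM. Lef1 was near 0 before day 3, so its log2 value there, 5.71 ± 0.68, is a description, as for Notum. Ctnnb1, the gene of beta-catenin, chosen after its values were seen, had medians of 222, 314 and 344 CPM (0.45 ± 0.07 and 0.54 ± 0.07).

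Known target genes of the canonical branch went both ways, with 4 of 13 tested genes higher and 4 lower at day 1, and 6 higher and 6 lower at day 3. Cd44, an adhesion receptor, rose at both days (log2 3.33 ± 0.10 and 2.69 ± 0.10), as did Ccnd1, the gene of cyclin D1 (2.26 ± 0.16 and 1.52 ± 0.15). Rgmb, a BMP coreceptor, fell at both (−1.45 ± 0.09 and −2.25 ± 0.10). Ccn4 had a median of 97.9 CPM at day 3 against 29.7 CPM in uninjured muscle (1.68 ± 0.13). Of 10 planar polarity genes, 4 fell and none rose at day 1, and 4 rose and 2 fell at day 3. Scrib, a polarity scaffold, rose at day 3 (1.89 ± 0.16), and so did Daam2, a formin that binds Dishevelled (2.26 ± 0.33), while Prickle2, a core component, fell (−3.32 ± 0.37).

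Some markers of connective tissue cells rose with Sfrp2, Sfrp1, Dkk3 and Cthrc1 at day 3, and others fell. Of 12 tested fibroadipogenic markers, 5 rose and 5 fell against uninjured. The summed level of that list was lower at day 3 (1807 to 3775 CPM) than in uninjured libraries (6346 to 7748 CPM). Col1a1 had medians of 30.1, 10.45 and 396 CPM, Lum 5.82, 6.98 and 29.1 CPM and Pdgfra, a defining receptor of these cells, 0.312, 4.49 and 12.3 CPM, while Dpt had 386, 49.1 and 7.89 CPM. Of 6 tenocyte markers 2 rose and 1 fell, and Scx had medians of 14.1, 13.5 and 80.4 CPM. No marker of either list was at 0 in all day 3 libraries. Their part in the rise of these members was not tested.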

How the data were processed

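RNA of 22 libraries was analysed. Per the file headers, the deposited RSEM files give for each transcript an expected count, TPM, FPKM (not used) and the percent of the gene's output. RSEM 1.3.3, STAR 2.5.2, Trimmomatic 0.33, DESeq2 and the build mm10 are named in the submitters' processing notes, and library strand is not given in the sources used here. Expected counts were summed per gene and rounded. TPM was summed per gene for levels compared between genes. Members were matched to GENCODE M21 (GRCm38).

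All libraries entered 1 edgeR 4.0.16 fit in R 4.3.3 (TMM, robust quasi-likelihood, 6 group means, common dispersion 0.0444), after a filter (minimum count 10, total 15) that kept 15084 genes and left out 28346. Contrasts of group means averaged both times, with Benjamini-Hochberg adjustment over all genes and a threshold of 0.05. Each SE is the absolute log2 value divided by the root of its F statistic. CPM is TMM-scaled (factors 0.942 to 1.094). Triplets of values are the lowest, median and highest library. Counting intervals (exact, 95%) and floors cover counting error only. The fit was tested on simulated data.

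Named in the text are members that averaged 10 CPM or more in some group, members past a threshold, the 3 smallest p-values of each time comparison, and up to 4 genes with the smallest p per list. Members and lists were chosen with earlier results of these data known. DESeq2 1.42.0 and limma 3.58.1, other scalings and filters, single times and left-out libraries were alternatives.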

Additional observations from a re-analysis of the deposited data

Results flagged for a closer look

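In groups of 4 libraries, 60 sets of values of the members with at least 10 CPM were examined for a single library far from the other 3, by Dixon's criterion at the 95% level, and chance gives about 1 in 20 such sets. Lrp6 at day 3, ZT4 replicate 2, was low at 14.2 CPM, against 19.9 to 20.6 CPM in the others. Sfrp4 at day 1, ZT16 replicate 2, was high at 2.06 CPM, against 1.52 CPM in the others.

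Differences of the ZT16 to ZT4 effect between injured and uninjured muscle passed an edgeR test of the difference itself in 8 cases. At day 1 they were Fzd1 (−1.28), Fzd5 (−4.10), Fzd9 (−1.66) and Lrp6 (−0.80), and at day 3 Fzd1 (−1.61), Fzd4 (−1.42), Fzd5 (−2.91) and Lrp6 (−0.70), all on the log2 scale. Some rested on single libraries. Without uninjured ZT16 replicate 3, Fzd1 at day 1 was −0.94 (edgeR adjusted p = 0.0662), and without uninjured ZT16 replicate 1, Fzd5 at day 3 was −2.53 (edgeR adjusted p = 0.0603). Fzd9 at day 1 lost its call without any 1 of 8 libraries (edgeR adjusted p 0.0585 to 0.126), Lrp6 at day 1 without any 1 of 7 (0.0514 to 0.0814) and Lrp6 at day 3 without any 1 of 16 (0.0520 to 0.102). Of those libraries, uninjured ZT4 replicates 1 and 3 and uninjured ZT16 replicates 1 and 3 are shared by all 3.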

How the results depend on the processing

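Of 3321 values under alternatives, 3121 stayed on their side of the threshold, or, for a count of members, within 1.5 times. Of 59 member calls between states, 51 held in all 22 fits that left out 1 library, 7 were lost in some, and Dkk2 between the days was tested in 19. The direction turned in 3 values: Fzd5 at day 1 (−0.79) and at day 3 (−0.29) with ZT16 groups alone, and Fzd8 between times in uninjured muscle (−0.058) without uninjured ZT16 replicates 1 and 3. Members past the threshold numbered 4 (higher, day 1, ZT16 groups alone), 18 (higher, day 3, no filter on low counts) and 6 (lower, day 3, ZT4 groups alone). Between times in uninjured muscle they were 3 in a fit of those groups alone and 2 (Fzd1 and Sfrp2) without ZT16 replicates 1 and 3. For the difference in time effect at day 1 they were 2 with limma voom, 2 in a fit of the groups compared and 0 without those replicates, and at day 3 they were 2 with limma voom, 1 (Sfrp2) without those replicates and 1 without the 4 day 3 libraries with the most genes detected, an alternative chosen after seeing the data. The cause was not tested.

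Leaving out 1 library gave 17 to 20 members at day 1 (7 to 10 higher, 9 to 12 lower), 19 to 25 at day 3 (10 to 15 higher, 9 to 10 lower) and 18 to 20 between the days (11 to 13 higher, 6 to 7 lower). It gave 4 to 7 between times in uninjured muscle (4 to 7 higher, 0 to 1 lower), 0 to 0 after injury, and 1 to 5 (all lower) and 2 to 6 (0 to 1 higher, 2 to 5 lower) for the differences in time effect at day 1 and day 3.

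Replicate numbers did not pair the libraries (51 pairs, correlations −0.098 to 0.172). With the replicate block, 3 of 73 member calls were lost: Sfrp4 between the days (0.71, edgeR adjusted p = 0.0833), Fzd8 between times in uninjured muscle (1.84, edgeR adjusted p = 0.0730) and Lrp6 for the day 3 difference in time effect (−0.71, edgeR adjusted p = 0.0579). The counts with the replicate block were 18 at day 1, 22 at day 3 and 19 between the days. Offsets for effective length shifted the median of all genes at day 3 by 0.117 (log2). Members under about 1 CPM rest on few counts, and their SEs are the least certain.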

Other observations

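The isoforms that RSEM assigned to Wnt7b differed between the days. At day 1, all Wnt7b reads went to transcript Wnt7b-201 (71 estimated reads) in 7 libraries and to Wnt7b-202 (5 reads) in 1. At day 3, Wnt7b-202 took 69.8% to 100% of the gene's output in each of the 8 libraries (1340 reads), and Wnt7b-201 had 53.8 reads in 5 libraries. The annotated transcripts are 3371 and 3492 bases long in the files, and the assignment of reads to transcripts is an estimate, so the values are given without a test.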
